A study of Mus musculus with 13 samples.

Results

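Kidneys of control mice at postnatal day 20 were compared with kidneys of control mice at postnatal day 10 across all genes measured by RNA-seq. The day 10 group holds 2 libraries of genotype KSP/Cre-;Pkd1f/f and the day 20 group 2 libraries of genotype Pkhd1/Cre-;Pkd2f/f, all from C57BL/6 mice, and these 4 were taken from 13 samples in the series by genotype and age. Both groups carry a floxed polycystin gene and neither carries a Cre recombinase, so each serves as the control of its own knockout: KSP/Cre drives recombination from the promoter of the kidney cadherin Cdh16, and Pkhd1/Cre from the promoter of the fibrocystin gene. The 2 Pkd1 knockout libraries (KSP/Cre+;Pkd1f/f, day 10) and the 2 Pkd2 knockout libraries (Pkhd1/Cre+;Pkd2f/f, day 20) entered the same model and are given beside the controls where they bear on a result. Age, the floxed gene and the breeding line change together between the control groups and cannot be told apart. The labels do not say whether the 2 libraries of a group came from separate mice, so p-values measure only the spread between libraries.

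The mouse kidney goes on forming for days after birth. New nephrons are added at the outer cortex until nephron progenitors are used up in the first days of life, and tubules then lengthen by cell division while their cells take on the carriers, channels and enzymes of the adult nephron. Around weaning, pups pass from milk to solid food, the ability to concentrate urine develops, and blood levels of glucocorticoids and thyroid hormone rise.

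Depth lay between 49634037 and 94429120 recovered reads in the 4 control libraries, and values are given as scaled RPM, the authors' estimated read numbers relative to library depth, divided by a scaling factor of each library. Markers of kidney cells were present in all 4 libraries, among them the proximal tubule receptor Lrp2 (785 and 1035 at day 10, 1151 and 1669 at day 20) and the podocyte gene Synpo (117 and 99.3, then 54.7 and 60.2). The libraries were not balanced for sex: Xist, expressed from the inactive X chromosome, stood at 0.221 and 416 at day 10 and at 346 and 349.5 at day 20, while the summed value of 4 Y-linked genes was 155 and 10.4 at day 10 and 0.104 and 0.0221 at day 20. The first day 10 library thus has the pattern of a male, the second has Xist with some Y-linked signal, and both day 20 libraries have the pattern of females. The share of mitochondrially encoded RNA was 27.4% and 38.7% at day 10 and 41.4% and 41.3% at day 20. Summed adrenal gland markers came to 0.82 and 0.853 at day 10 and to 4.16 and 159 at day 20, high in the second day 20 library. The part of these in the results below was not tested beyond a covariate for sex, a rescaling without mitochondrially encoded genes and a fit without that library. The correlation of log2 values was 0.982 between the day 10 libraries, 0.991 between the day 20 libraries and 0.942 to 0.956 across ages.

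At day 20, 738 genes were higher and 1063 lower than at day 10 among 14637 genes tested, with the growth factor Egf and the imprinted RNA H19 at the extremes of the called genes. Here and below a gene is called, or passed, when its Benjamini-Hochberg adjusted p from limma on log2(value + 1) was below 0.05, and fold changes are on that scale as log2 values ± standard error, which understates the change of low genes. The called genes were 12.3% of those tested (5.04% higher and 7.26% lower), 970 of them changed at least 2-fold, and 4007 genes had an unadjusted p below 0.05. Counts of called list members below are to be read beside the 5.04% and 7.26%. The median log2 fold change over all genes was -0.0014. Leaving out a library lowered the number called: 412 genes passed without day 10 control 1, 818 without day 10 control 2, 487 without day 20 control 1 and 527 without day 20 control 2. Counts given below as without each library in turn follow this order. Of 167 named genes that were called, 70 passed under all 17 other settings. Another 6 (Agtr2, Cdc45, Igf2bp3, Slc22a7, Thrsp and Treh) passed under the 16 in which they could be tested, lacking a value of 5 in 2 libraries for the stricter filter. When mitochondrially encoded genes were left out, 60 lost their call. These were 48 of 94 named genes called higher, Hlf, Klf9 and Tef among them, and 12 of 73 called lower. Of the called genes 41.0% were higher, but 24.0% when mitochondrially encoded genes were left out and the rest rescaled, which moved the median of all genes by -0.20, and 28.1% when small structural RNAs were left out as well, a shift of -0.13. With a covariate for sex, 564 genes were higher and 513 lower.

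**Figure D1:**
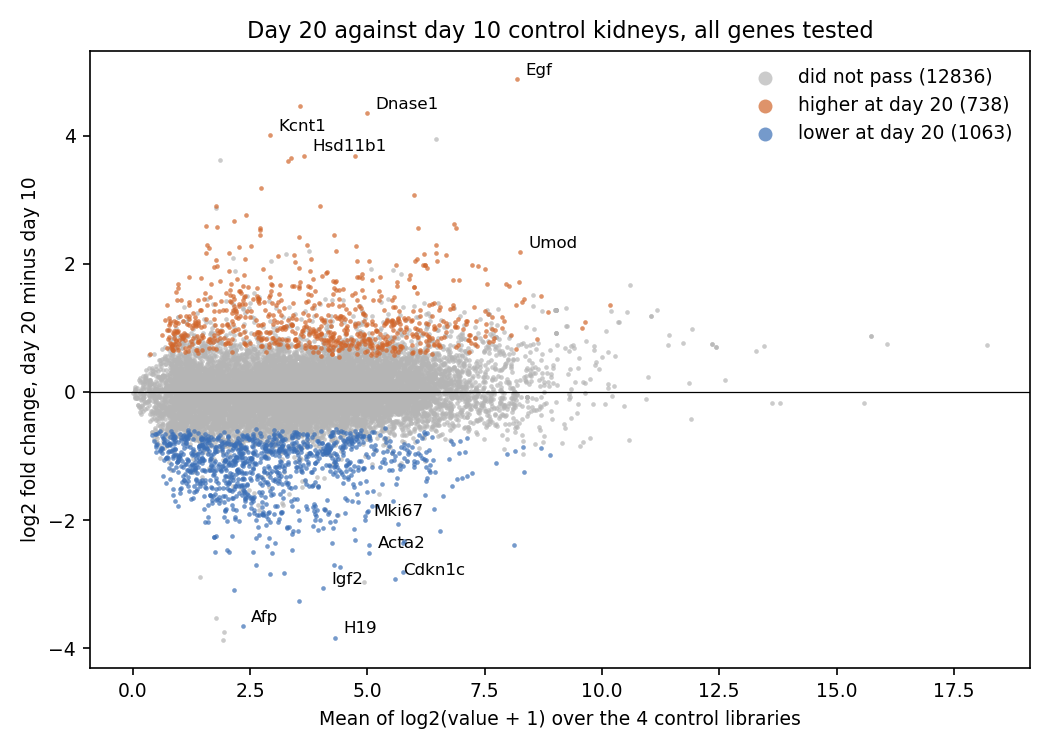
Each point is 1 of 14637 genes, with the mean of log2(value + 1) over the 4 control libraries on the horizontal axis and the log2 fold change of day 20 over day 10 on the vertical axis. The 738 genes called higher are orange, the 1063 called lower are blue, and the rest are grey; Egf stands highest at 4.89 and H19 is the lowest of the labelled genes at -3.83.

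Egf, the growth factor made by the thick ascending limb and distal tubule (chr3:129677565-129755316, mm10), had the largest rise of all genes tested. That ranking is on the log2(value + 1) scale. In the ratio of means Egf rose 29.98-fold, and Serpina1f, with lower values at both ages, rose more. Egf was at 59.4 and 47 in the day 10 libraries and 1506 and 1682 in the day 20 libraries (log2 fold change 4.89 ± 0.27, adjusted p = 0.000145). Dnase1, a secreted nuclease found in urine, went from 5.52 and 6.71 to 143 and 144 (4.35 ± 0.22, adjusted p = 0.000145). Serpina1f, of the alpha-1-antitrypsin family of protease inhibitors, went from 1.6 and 1.44 to 51 and 57.8 (4.46 ± 0.24). In each of these 3 genes the 4 values form pairs that do not overlap, as the rule that named them required and as in 62.3% of all genes tested (31.1% higher and 31.2% lower). The sodium-activated potassium channel Kcnt1 was at 1.84 and 0.262 at day 10, with the first library well above the second, and at 26 and 33.1 at day 20 (4.0 ± 0.38). Hsd11b1, which regenerates active glucocorticoid inside cells, stood at 2.35 and 2.65 and then 45.3 and 42.8 (3.69 ± 0.35). Gc, the vitamin D-binding protein that proximal tubule cells also take up, stood at 5.91 and 6.89 and then 92.4 and 96.1 (3.69 ± 0.59). The remaining members of the 12 largest rises were the carboxylesterase Ces1d (3.65 ± 0.36), the phosphatase inhibitor Ppp1r1b (3.6 ± 0.31), the glycine cleavage enzyme Gldc (3.19 ± 0.32), the organelle membrane protein Mpv17l (3.07 ± 0.21), the exchange factor Rasgef1b (2.9 ± 0.37) and the drug export pump Abcb1b (2.77 ± 0.41). Rasgef1b differed between the day 20 libraries (57.9 and 31.5), and so did Abcb1b (7.85 and 20.6), each still above both day 10 values (4.4 and 5.34 for Rasgef1b, 0.91 and 1.16 for Abcb1b). Gc and Abcb1b lost their call without day 10 control 1, and the other 10 passed under all 17 other settings tried.

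H19, a long noncoding RNA transcribed from the maternal chromosome (chr7:142575529-142578143, mm10), had the largest fall among called genes. That ranking too is on the log2(value + 1) scale. In the ratio of means H19 fell 17.3-fold, and Afp, with lower values at both ages, fell more. H19 stood at 82.7 and 66.4 at day 10 and at 3.64 and 5.01 at day 20 (-3.83 ± 0.27, adjusted p = 0.000319). Afp, the fetal relative of albumin, went from 14.6 and 19.96 to 0.312 and 0.574 (-3.66 ± 0.23, adjusted p = 0.000205). Igf2, the paternally expressed fetal growth factor next to H19 on chromosome 7 (chr7:142650766-142666816), went from 46 and 47.8 to 5.3 and 4.28 (-3.05 ± 0.18). The cyclin-dependent kinase inhibitor Cdkn1c, also imprinted and on chromosome 7 (chr7:143458350-143461050), went from 137 and 124 to 15 and 17.9 (-2.92 ± 0.20). In all 4 of these genes both day 20 values lie below both day 10 values, as the rule that named them required, here by several-fold. Penk, which encodes the enkephalin precursor, stood at 28.4 and 19.8 and then 2.7 and 2.32 (-2.82 ± 0.20), and Mdk, the heparin-binding growth factor midkine, at 59.4 and 48.6 and then 7.09 and 7.37 (-2.73 ± 0.19). Thbs2, a matricellular thrombospondin, stood at 50.5 and 47.4 and then 6.81 and 6.6 (-2.7 ± 0.16). The imprinted membrane protein gene Nnat was spread widest, at 24.7 and 15 and then 0.624 and 3.88 (-2.85 ± 0.52), and lost its call without day 10 control 1, without day 20 control 1 and with the sex covariate. The others of the 12 were the lectin Clec18a (-3.26 ± 0.27) and the leucine-rich repeat proteins Lgi2 (-3.09 ± 0.23) and Lrrtm1 (-2.71 ± 0.23), with Rpl29 (-2.81 ± 0.28). Rpl29, a protein of the large ribosomal subunit, was at 137 and 149 at day 10 and 21.3 and 17.8 at day 20. It has processed pseudogenes, and reads from such copies may have been split among them, so its value is uncertain. Among 32 other ribosomal protein genes 1 was lower (Rplp0, -0.97 ± 0.21), with a median of -0.27, and that call was lost in each of the 4 fits that left out a control library.

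**Figure D2:**
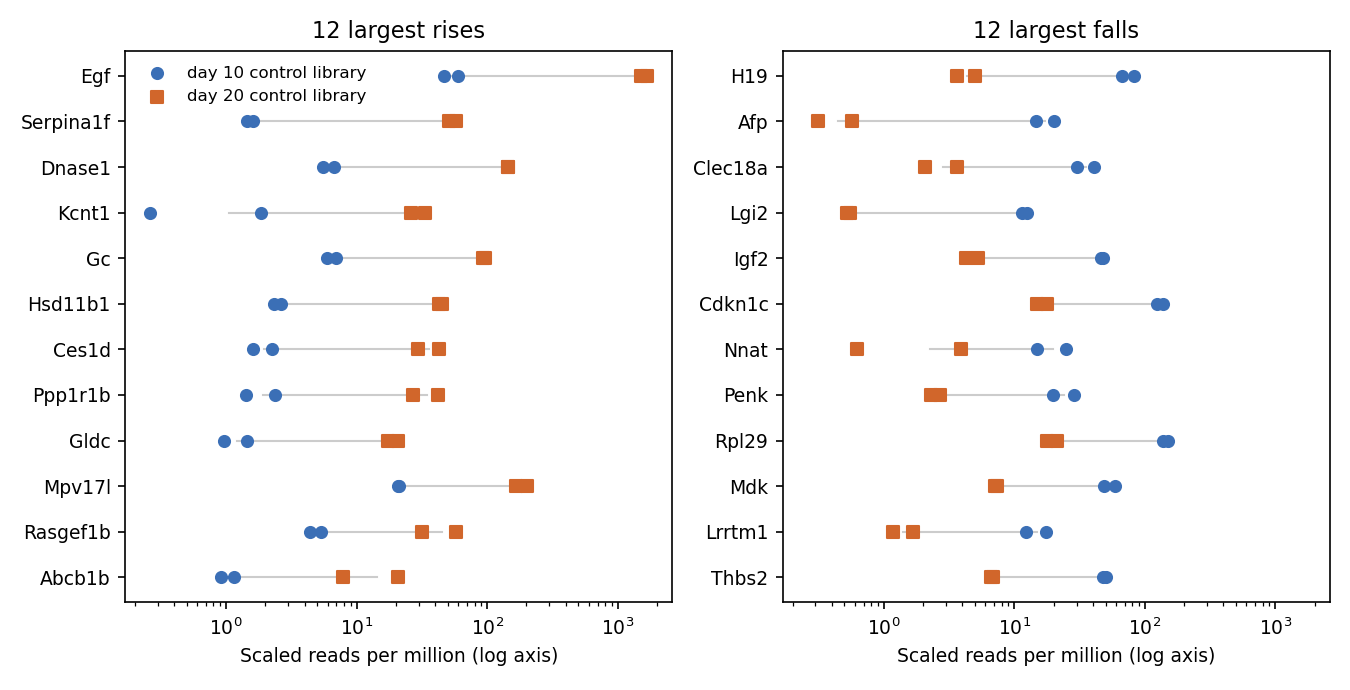
Scaled RPM (log axis) of the 12 largest rises (left) and the 12 largest falls (right), with 1 point for each control library and a grey line between the group means. The genes were chosen among called genes whose day 20 squares and day 10 circles do not overlap, with Egf going from 47.0 and 59.4 to 1506 and 1682 at the top left and H19 from 66.4 and 82.7 to 3.64 and 5.01 at the top right.

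Genes of cell division were lower at day 20. Of 20 mitosis genes all 20 were called lower, against 7.26% of all genes, with a median log2 fold change of -1.64 and a range of -2.0 to -1.25. Mki67, the marker of cycling cells, was at 61.9 and 59.1 at day 10 and 15.8 and 13.1 at day 20 (-2.0 ± 0.27, adjusted p = 0.00312). The spindle assembly factor Tpx2 was at 30.7 and 26.5 and then 6.5 and 6.9 (-1.94 ± 0.19), and Prc1, which bundles the microtubules of the late spindle, at 57.1 and 62.3 and then 14.6 and 15.2 (-1.93 ± 0.21). The mitotic cyclin Ccnb1 (-1.67 ± 0.17) and the ubiquitin-conjugating enzyme Ube2c (-1.64 ± 0.18) fell as well. Replicates lay close together, and the summed value of the 20 genes was 366 and 363 at day 10 and 94.9 and 92.1 at day 20. Without each library in turn, 16, 19, 16 and 17 of the 20 were lower. In whole kidney, fewer cells of a type and less RNA per cell cannot be told apart.

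Among 20 DNA replication genes 14 were lower and 0 higher (median -1.14). The replicative helicase subunits Mcm6 (45.9 and 43.8, then 15 and 11.4, -1.7 ± 0.18), Mcm3 (-1.46 ± 0.19) and Mcm5 (-1.6 ± 0.22) passed under all 17 other settings, and their loading partner Cdc45 (-1.18 ± 0.17) under the 16 in which it was tested. The polymerase clamp Pcna was at 39.4 and 39.4 and then 25.9 and 23.3 and did not pass (-0.66 ± 0.21, adjusted p = 0.0766). In the 4 fits without a library, 5, 9, 9 and 5 of the 20 were lower. Of 67 histone genes of the replication-dependent clusters 35 were lower and 0 higher, with a median of -1.56. Of 11 tested genes of the CDK inhibitor and D cyclin list 4 were lower: besides Cdkn1c, these were the p53 target Cdkn1a (12.4 and 10.1, then 4.08 and 3.0, -1.43 ± 0.20), the cyclin Ccnd2 (56 and 60.1, then 18 and 20.6, -1.54 ± 0.22) and the growth regulator Myc (-0.95 ± 0.26, adjusted p = 0.0482). Both inhibitors and drivers of the cycle were thus among the genes that fell. The cyclin Ccnd3, the most abundant by reads, was at 140.2 and 110.5 and then 91.3 and 103 (-0.35 ± 0.20, adjusted p = 0.289). Myc lost its call in each of the 4 fits without a control library.

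Promoters of the mitosis genes hold letters known from cell cycle regulation. The CHR element (TTTGAA), bound by the complex that represses cell cycle genes in resting cells and activates them before mitosis, was searched together with the CCAAT box (CCAAT), bound by NF-Y, on both strands of 300 bases around the RefSeq start of each gene (GRCm38.p6). Of 17 mitosis genes with a RefSeq promoter, 13 hold TTTGAA (76.5%), against 11.9% of 10183 promoters of genes tested and 18.2% of those of genes called lower, and 16 hold CCAAT (94.1%, against 38.3% of all and 43.1% of those lower). Among 16 DNA replication genes 3 hold TTTGAA (18.8%), 12 hold CCAAT (75%) and 4 hold the E2F letters TTTCCCGC (25%, against 2% of all). A match is a description of the letters, not a site shown to be used. The bases before the start are printed for Cdk1, the kinase that drives mitosis, its cyclin partner Ccnb2, and Top2a, which untangles chromosomes, with both motifs in capitals in either orientation; the 3 were chosen after their values and matches were seen. Cdk1 was at 22.2 and 27.7 and then 7.93 and 8.49 (-1.49 ± 0.23), Ccnb2 at 6.88 and 6.28 and then 1.64 and 1.83 (-1.47 ± 0.17), and Top2a at 39.97 and 46.3 and then 11.6 and 10.3 (-1.89 ± 0.26). The windows lie on the minus strand of build GRCm38.p6, at chr10:69352939-69353162, chr9:70421555-70421804 and chr11:99024190-99024439, and run 5′ to 3′ up to the first annotated start. No match overlaps another in them.
Cdk1: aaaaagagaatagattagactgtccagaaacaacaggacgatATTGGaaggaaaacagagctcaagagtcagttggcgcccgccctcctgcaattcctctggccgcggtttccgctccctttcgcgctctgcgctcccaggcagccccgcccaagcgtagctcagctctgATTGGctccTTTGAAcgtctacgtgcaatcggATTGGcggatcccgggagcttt
Ccnb2: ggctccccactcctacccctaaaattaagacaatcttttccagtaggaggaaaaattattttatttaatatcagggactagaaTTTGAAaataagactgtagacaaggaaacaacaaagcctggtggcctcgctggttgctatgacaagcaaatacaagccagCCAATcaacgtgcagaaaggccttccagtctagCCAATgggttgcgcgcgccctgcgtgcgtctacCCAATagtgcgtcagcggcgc
Top2a: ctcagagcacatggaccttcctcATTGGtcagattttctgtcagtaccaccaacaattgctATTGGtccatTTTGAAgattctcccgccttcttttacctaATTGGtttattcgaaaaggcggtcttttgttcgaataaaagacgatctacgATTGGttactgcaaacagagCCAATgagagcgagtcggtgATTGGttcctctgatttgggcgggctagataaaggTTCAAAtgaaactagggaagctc

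Some imprinted and fetal genes were lower at day 20. Of 17 tested imprinted growth genes 8 were lower and 0 higher (median -0.89). Beside H19, Igf2 and Cdkn1c, the paternally expressed Mest went from 63 and 54.2 to 9.8 and 12.3 (-2.31 ± 0.17, adjusted p = 0.000353) and Grb10, an adaptor that restrains insulin receptor signals, from 119 and 109 to 52.7 and 47.9 (-1.16 ± 0.20). Gnas, which encodes the stimulatory G protein subunit, was the most abundant by reads and did not pass (1236 and 1064, then 949 and 1065, adjusted p = 0.687). Of 7 tested oncofetal genes 5 were lower and 0 higher, among them the 3 RNA-binding proteins named for Igf2 mRNA: Igf2bp1 (7.37 and 8.16, then 2.18 and 1.59, -1.61 ± 0.20), Igf2bp2 (14.2 and 13.6, then 4.31 and 4.72, -1.44 ± 0.20) and Igf2bp3 (2.02 and 2.69, then 0.416 and 0.265, -1.32 ± 0.18). The DNA methyltransferase Dnmt3b (-0.93 ± 0.18) fell as well and the chromatin protein Hmga1 did not pass (-0.9 ± 0.30, adjusted p = 0.0868). Leaving out 1 library at a time, 4, 5, 4 and 5 imprinted and 4, 4, 4 and 4 oncofetal genes were lower. Grb10 lost its call without day 10 control 1 and without either day 20 control, and Dnmt3b without any 1 of the 4.

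Most nephron progenitor genes lay below the level for testing. Of 10 such genes 4 reached it, and 0 of these passed in limma, edgeR or DESeq2, with 2 at an unadjusted p below 0.05. The median log2 fold change of the 4 was 0.19. The summed value of the 10 was 22.3 and 21.5 at day 10 and 26.95 and 24.9 at day 20. Of 13 genes of the early nephron and ureteric tip 4 were lower and 0 higher (median -0.45). Wnt9b, the ureteric signal that induces nephrons, went from 8.04 and 6.14 to 0.884 and 1.1 (-2.01 ± 0.20, adjusted p = 0.000992), and Wnt4, which acts in the induced cells, from 6.54 and 5.42 to 1.07 and 1.15 (-1.72 ± 0.17). The transcription factor Sox11 went from 4.62 and 5.05 to 0.702 and 0.927 (-1.69 ± 0.25). These 3 passed under all 17 other settings. Gfra1, the GDNF coreceptor of the ureteric bud, fell (-0.77 ± 0.21, adjusted p = 0.0429) but lost its call in each of the 4 fits without a control library. The Notch ligand Jag1 was at 35.8 and 36.3 and then 23.4 and 24.3 and did not pass (-0.58 ± 0.17, adjusted p = 0.0568), and neither did the nephron factor Pax8 (0.24 ± 0.27, adjusted p = 0.628). Among 15 growth factors and receptors 2 rose and 2 fell: hepatocyte growth factor Hgf rose (3.98 and 3.87, then 10.9 and 9.57, 1.19 ± 0.18) beside Egf, and Pdgfa fell (42.6 and 37.4, then 12.4 and 11.6, -1.66 ± 0.17) beside the binding protein Igfbp2 (31.1 and 18.2, then 4.73 and 7.48, -1.83 ± 0.32). Agtr2, the angiotensin receptor of the fetal kidney, was the 1 member of the renin-angiotensin list of 9 that passed (2.53 and 2.25, then 0.13 and 0.243, -1.52 ± 0.18). Among the fits without a library, Hgf lost its call without day 20 control 1, and Igfbp2 without that library or day 10 control 1.

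Some genes of smooth muscle, pericytes and interstitium were lower, and genes of endothelium mostly did not pass. Of 15 tested mural and interstitial genes 8 were lower and 0 higher (median -0.68). Acta2, the actin of smooth muscle and myofibroblasts, went from 85 and 70.9 to 11.1 and 14.8 (-2.51 ± 0.21, adjusted p = 0.000538) and passed under all 17 other settings. The mesangial integrin Itga8 (113 and 96.6, then 53.4 and 47.3, -1.04 ± 0.18), the pericyte gene Rgs5 (74.8 and 86, then 40.8 and 30.8, -1.16 ± 0.21) and the stromal factor Meis1 (68.4 and 66.1, then 35.7 and 30.6, -1.0 ± 0.19) were lower too. In each, both day 20 values lie below both day 10 values, as in 31.2% of all genes tested. Pdgfra, the receptor that marks interstitial fibroblasts, did not pass (169 and 144, then 135 and 114, adjusted p = 0.344). With each library left out in turn, 1, 2, 2 and 1 of the 15 were lower. Among 17 endothelial genes 1 was lower, the tight junction gene Cldn5 (8.05 and 7.89, then 2.96 and 2.93, -1.18 ± 0.25), whose call was lost in each of those 4 fits. The adhesion molecule Pecam1 was at 174 and 148 and then 145 and 121 (-0.27 ± 0.22, adjusted p = 0.484).

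Matrix genes fell in part. Of 21 matrix proteins and crosslinkers other than collagens 8 were lower and 0 higher (median -0.71). Components of elastic microfibrils led them: Fbn2, the fibrillin of developing tissue, went from 7.6 and 5.53 to 0.65 and 0.507 (-2.25 ± 0.21), Mfap4 from 27.7 and 19.98 to 3.22 and 3.71 (-2.46 ± 0.26) and Mfap2 from 22.7 and 16.5 to 3.59 and 3.88 (-2.11 ± 0.24). These 3 passed under all 17 other settings. Postn, the matricellular protein periostin, went from 142 and 107 to 50.1 and 53.1 (-1.24 ± 0.20) and lost its call without day 10 control 1 and without either day 20 control. Fibronectin (Fn1) was at 1477 and 825 and then 612 and 742, wide apart at day 10, and did not pass (-0.71 ± 0.36, adjusted p = 0.242). Of 21 collagens 4 were lower and 1 higher (median -0.55). Col12a1 (89 and 70.9, then 27.4 and 29.9, -1.44 ± 0.24), Col16a1 (-1.34 ± 0.23), Col5a2 (-1.17 ± 0.25) and Col6a2 (-0.96 ± 0.26) fell and Col8a1 rose (2.45 and 2.73, then 6.78 and 5.89, 1.03 ± 0.17), while the fibrillar Col3a1 (571 and 353, then 217 and 239, adjusted p = 0.0614) and the basement membrane Col4a1 (-0.79 ± 0.27, adjusted p = 0.0989) did not pass. When 1 library was dropped, 0, 3, 0 and 1 collagens and 3, 5, 4 and 3 other matrix genes were lower.

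Most podocyte genes fell. Of 15 podocyte genes 10 were lower and 0 higher, with a median of -0.71. Wt1, the transcription factor that maintains podocytes, was at 24.8 and 24.2 and then 8.73 and 7.77 (-1.46 ± 0.19, adjusted p = 0.00242) and passed under all 17 other settings. The cytoskeletal Synpo was at 117 and 99.3 and then 54.7 and 60.2 (-0.9 ± 0.19), and the transcription factor Tcf21 (-1.17 ± 0.23) fell too. In these 3 genes both day 20 values lie below both day 10 values, as in 31.2% of all genes tested. Npnt, a matrix protein also made by tubules, did not pass (704 and 731, then 487 and 484, adjusted p = 0.159). The summed value of the list was 1197 and 1217 at day 10 and 789.5 and 786 at day 20. Without each library in turn, 1, 1, 1 and 2 of the 15 were lower, and with mitochondrially encoded genes left out 3.

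Some carriers of the proximal tubule were higher at day 20, and most did not pass. Of 24 proximal tubule carriers 7 rose and 1 fell (the lactate carrier Slc16a1, -0.68 ± 0.16), against 5.04% and 7.26% of all genes, with a median of 0.76. Slc9a3, the sodium-proton exchanger of the brush border, went from 5.88 and 5.49 to 20.6 and 18.7 (1.63 ± 0.24, adjusted p = 0.00435). The sulfate carrier Slc26a1 (36.5 and 33.7, then 70.1 and 64.6, 0.92 ± 0.16), the glutamate carrier Slc1a1 (44.9 and 57.6, then 127 and 140.1, 1.37 ± 0.28) and the neutral amino acid carrier Slc6a18 (125 and 121, then 297 and 281, 1.22 ± 0.26) also rose. The phosphate carrier Slc34a1 was at 425 and 395 and then 663 and 699 and did not pass (0.73 ± 0.28, adjusted p = 0.127). Its day 20 values lie above both day 10 values, as in 31.1% of all genes tested. Slc4a4, which returns bicarbonate to blood, was at 425 and 519 and then 720.2 and 797 (0.69 ± 0.35, adjusted p = 0.251). Of 24 tested organic ion and drug carriers 8 rose and 0 fell (median 0.77). The organic anion carriers Slco4c1 (2.21 and 2.82, then 12.1 and 12.4, 1.92 ± 0.19), Slc22a13 (6.77 and 7.43, then 17.9 and 23.8, 1.42 ± 0.21) and Slc22a7 (0.23 and 0.131, then 1.53 and 3.0, 1.43 ± 0.22) rose, and so did Slc22a4, which carries ergothioneine (1.9 and 1.86, then 7.12 and 9.02, 1.65 ± 0.18). The anion carrier Slc22a8 did not pass (98.3 and 89.6, then 112 and 127, adjusted p = 0.376). Slc9a3, Slc22a4 and Slco4c1 passed under all 17 other settings, and Slc22a7 under the 16 in which it was tested. In the 4 fits without a library, 1, 1, 1 and 1 proximal tubule carriers and 3, 5, 5 and 4 organic ion carriers rose.

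Receptors of protein uptake mostly did not pass. Of 17 endocytosis and brush border genes 1 rose, near the 5.04% of all genes. This was Treh, the trehalase of the brush border (0.607 and 0.241, then 4.99 and 6.44, 2.24 ± 0.27). The list median was 0.17, which turns to -0.04 when mitochondrially encoded genes are left out. Lrp2 (megalin) did not pass (0.62 ± 0.29, adjusted p = 0.216), and its adaptor Dab2 was at 647 and 739 and then 461 and 522 (-0.49 ± 0.26, adjusted p = 0.26). Of 21 nephron transcription factors 2 rose: the fatty acid receptor Ppara (9.57 and 11, then 25.1 and 30.6, 1.35 ± 0.26) and the estrogen-related receptor Esrrb (13.8 and 7.76, then 36.9 and 27.8, 1.53 ± 0.36). Hnf4a, the nuclear receptor of proximal tubule identity, was at 149 and 146 and then 244 and 249 and did not pass (0.74 ± 0.27, adjusted p = 0.116). Treh passed under the 16 other settings in which it was tested, and Ppara and Esrrb passed in none of the 4 fits without a control library.

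In the loop of Henle, 6 of 15 thick ascending limb genes rose and 0 fell (median 0.56). Umod, uromodulin, the most abundant protein of urine, went from 172 and 119 to 585 and 731 (2.19 ± 0.26, adjusted p = 0.00182). Slc12a1, the furosemide-sensitive salt carrier, went from 800.2 and 659 to 2034 and 1694 (1.35 ± 0.31), and Ptger3, a prostaglandin receptor, from 9.29 and 6.41 to 29 and 29.9 (1.8 ± 0.28). Egf, Ppp1r1b (at 2.39 and 1.42, then 27.2 and 41.6) and the potassium channel Kcnj1 (1.03 ± 0.20) were the other 3. The segment's cation pore gene Cldn10 was at 53 and 63.5 and then 104 and 94.3 and did not pass (0.76 ± 0.35, adjusted p = 0.198). Leaving out 1 library at a time, 4, 4, 4 and 5 of the 15 rose. Of 19 genes of the thin limb and urine concentration 3 rose. Slc5a3, which imports the osmolyte inositol into medullary cells, went from 44.4 and 46.7 to 364 and 225 (2.63 ± 0.24, adjusted p = 0.000763), while Nfat5, the factor that controls it under high salt, did not pass (489 and 365, then 343 and 352, -0.28 ± 0.22, adjusted p = 0.467). The ectoenzyme Bst1 (1.39 ± 0.21) and the vasopressin receptor Avpr2 (3.75 and 2.67, then 9.23 and 7.08, 1.12 ± 0.20) rose. Slc12a1 lost its call in each of the 4 fits without a control library, Avpr2 without day 10 control 2 and day 20 control 1, and Bst1 without day 10 control 1.

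Farther down the nephron, 4 of 18 distal convoluted and connecting tubule genes rose and 0 fell. These were the calcium-binding Pvalb (1.57 and 1.46, then 6.76 and 8.43, 1.76 ± 0.25) and Calb1 (52.7 and 64.6, then 123 and 167, 1.28 ± 0.33), the salt-sensing kinase Wnk4 (38.2 and 27.9, then 55.6 and 74.7, 0.96 ± 0.22) and tissue kallikrein Klk1 (124 and 85.5, then 325 and 345, 1.69 ± 0.46). In collecting duct principal cells 3 of 16 rose: Avpr2, the sodium channel subunit Scnn1a (44.6 and 34, then 72.7 and 78.7, 0.94 ± 0.18) and Tmem229a (0.85 ± 0.20). The aldosterone-induced kinase Sgk1 was at 110.4 and 127 and then 399 and 209.9, with the first day 20 library far above the second, and did not pass (1.28 ± 0.46, adjusted p = 0.111). Of 20 intercalated cell genes 1 rose, near the 5.04% of all genes. This was the bicarbonate exchanger Slc26a4 (4.82 and 5.6, then 8.99 and 10.9, 0.82 ± 0.17), and carbonic anhydrase Car2 did not pass (0.68 ± 0.20, adjusted p = 0.0607). With each library left out in turn, 1, 1, 1 and 1 distal, 2, 1, 0 and 1 principal and 0, 0, 0 and 0 intercalated cell genes rose. Of 14 tested claudins, the pore and seal proteins of tight junctions, 4 fell and 0 rose. Cldn6, a claudin of embryonic epithelium, went from 7.68 and 6.45 to 0.468 and 0.397 (-2.49 ± 0.18, adjusted p = 0.000351) and passed under all 17 other settings, while Cldn11 (-1.66 ± 0.29) and Cldn3 (-0.66 ± 0.17) fell with Cldn5 and lost their calls in at least 3 of the 4 fits without a library.

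Some enzymes of amino acid breakdown and drug metabolism rose, and most of those listed did not pass. Of 24 tested amino acid and vitamin enzymes 10 rose and 0 fell (median 0.94). Hpd, of tyrosine breakdown, went from 0.115 and 0.306 to 6.86 and 5.71 (2.59 ± 0.19, adjusted p = 0.000353), Prodh, of proline breakdown, from 9.23 and 7.61 to 44.1 and 40.2 (2.2 ± 0.20), and Aass, of lysine breakdown, from 6.49 and 5.2 to 29.1 and 26.6 (2.08 ± 0.19). With Gldc (0.968 and 1.44, then 17.5 and 20.6), these 4 passed under all 17 other settings. Miox, which breaks down inositol, was at 282 and 193 and then 521 and 671 and did not pass (1.34 ± 0.44, adjusted p = 0.0822), nor did the arginine-forming enzyme Ass1 (0.07 ± 0.30, adjusted p = 0.917). Of 22 glutathione transferases and conjugating enzymes 9 rose and 1 fell (median 0.84). The glucosyl and glucuronosyl transferases Ugt3a2 (25 and 29.4, then 167 and 161, 2.55 ± 0.35) and Ugt1a2 (49.9 and 75, then 198 and 219.9, 1.75 ± 0.28) rose, and Ugt2b37 fell (1.16 and 1.46, then 0.104 and 0.11, -1.06 ± 0.17). Of 19 tested cytochrome P450 enzymes 7 rose and 0 fell (median 0.61): the alcohol-metabolising Cyp2e1 was at 0.689 and 0.853 and then 16 and 6.4 (2.66 ± 0.37) and the epoxygenase Cyp2j5 at 91.8 and 101 and then 235 and 254 (1.33 ± 0.20). Of 11 antioxidant and oxidative enzymes 4 rose, the steroid dehydrogenase Akr1c21 (1.68 and 1.57, then 7.77 and 17.4, 2.28 ± 0.33), xanthine dehydrogenase Xdh (1.42 ± 0.28), the peroxisomal oxidase Hao2 (1.5 ± 0.34) and the glutathione peroxidase Gpx6 (0.98 ± 0.25). Gpx3, the plasma glutathione peroxidase made by the proximal tubule, was at 1207 and 1809 and then 3486 and 3718 and did not pass (1.28 ± 0.62, adjusted p = 0.221). When 1 library was dropped, 5, 5, 5 and 5 amino acid, 1, 4, 3 and 1 conjugating, 1, 3, 3 and 1 P450 and 1, 2, 2 and 1 antioxidant enzymes rose.

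Few genes of respiration passed, though all of those listed had higher fitted values at day 20. All 32 nuclear-encoded respiratory chain genes had a positive log2 fold change (0.25 to 1.21, median 0.76), and 7 of them passed. The complex I subunit Ndufs1 was at 133 and 134 and then 244 and 249.9 (0.88 ± 0.19, adjusted p = 0.0176), and the complex III iron-sulfur protein Uqcrfs1 at 25.8 and 34.4 and then 63.7 and 66.4 (1.1 ± 0.24). Atp5b, of the ATP synthase, was at 755 and 689.6 and then 1154 and 1129 and did not pass (0.66 ± 0.26, adjusted p = 0.14). The 15 mitochondrially encoded genes had a median of 0.88, and 0 passed in limma (0 at an unadjusted p below 0.05), 0 with edgeR and 3 with DESeq2 on recovered reads, and the ribosomal RNA mt-Rnr2 was at 157584 and 348992 at day 10, far apart, and at 405171 and 377143 at day 20. Of the respiratory chain genes 0, 2, 0 and 0 passed without each library in turn, 0 with mitochondrially encoded genes left out (median 0.55), 18 with DESeq2 and 24 with the 4 controls fitted alone. Of 26 fatty acid oxidation and peroxisome genes 7 rose and 0 fell (median 0.54), with catalase (Cat) at 68.1 and 68.7 and then 154 and 185 (1.29 ± 0.21) and the oxidase Acox2 at 16 and 9.6 and then 49.6 and 60.003 (2.05 ± 0.40). Of 12 genes of gluconeogenesis and fructose breakdown 2 rose, Sord (1.11 ± 0.24) and Khk (1.19 ± 0.33). Against 5.04% of all genes, of 18 of glycolysis 1 rose, Pfkp (1.16 ± 0.26), and of 21 of sterol and fatty acid synthesis 1 rose, Hmgcs1 (0.71 ± 0.19). These 4 single calls were lost in each fit without a control library, and fatty acid oxidation kept 0, 1, 1 and 0.

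**Figure D3:**
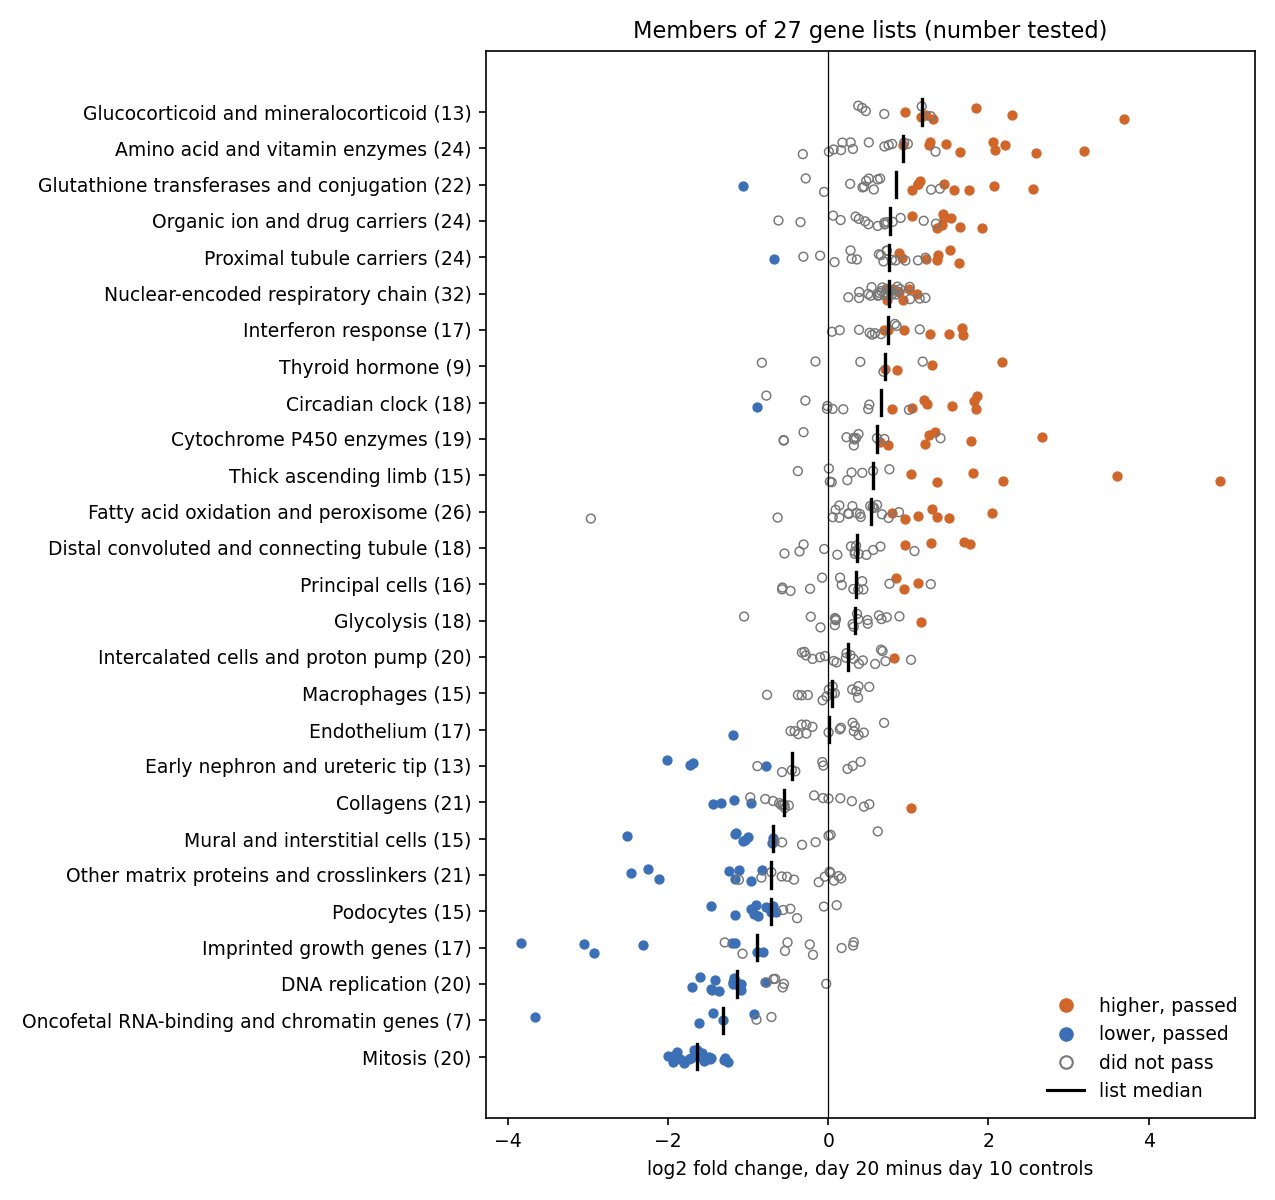
Log2 fold changes of day 20 over day 10 controls (horizontal axis) for the tested members of 27 gene lists, with called members filled (orange higher, blue lower), members that did not pass open, and the list median as a black bar. Mitosis lies lowest (median -1.64, all 20 called) and the glucocorticoid list highest (median 1.17, 7 of 13 called), with endothelium and macrophages near 0.

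Some genes that respond to glucocorticoid were higher at day 20. Of 13 tested genes of the glucocorticoid and mineralocorticoid list 7 rose and 0 fell (median 1.17). Beside Hsd11b1, the transcription factors Zbtb16 (0.295 and 0.394, then 7.8 and 3.97, 2.3 ± 0.46) and Klf15 (9.27 and 6.95, then 27.3 and 16.7, 1.31 ± 0.29) and the clock gene Per1 (17.7 and 11.9, then 69.96 and 42.6, 1.84 ± 0.38), known glucocorticoid targets, rose. In Zbtb16, Klf15, Per1 and Sgk1 the first day 20 library was the higher one. The receptor Nr3c1 itself was at 96.7 and 109.7 and then 149 and 137 (0.47 ± 0.19, adjusted p = 0.143). Without each library in turn, 1, 1, 2 and 5 of the 13 rose; 5 rose in the fit without the library with high adrenal markers. Of 9 thyroid hormone genes 4 rose and 0 fell. The hormone-induced Klf9 was at 13.3 and 14.4 and then 39.7 and 31.5 (1.29 ± 0.19, adjusted p = 0.00388), the lipogenic Thrsp at 0.689 and 0.153 and then 3.64 and 7.5 (2.17 ± 0.34), the receptor Thrb at 13 and 16.4 and then 27.9 and 26.6 (0.85 ± 0.20) and the thyroid hormone carrier Slc16a10 at 9.89 and 11.2 and then 18.3 and 17.3 (0.7 ± 0.19). The receptor Thra was at 62.3 and 44.4 and then 25.6 and 33.3, in the other direction, and did not pass (-0.83 ± 0.25, adjusted p = 0.0614). Of 9 genes of vitamin D and mineral hormones 3 rose: the prolactin receptor Prlr (64.9 and 68.6, then 205 and 251, 1.75 ± 0.20, adjusted p = 0.00147), Gc, and Cyp24a1, which inactivates vitamin D (8.59 and 9.18, then 18.7 and 25.5, 1.21 ± 0.31). In the 4 fits without a library, 2, 2, 2 and 2 thyroid and 1, 2, 2 and 2 vitamin D genes rose. Prlr passed under all 17 other settings, and Thrsp under the 16 in which it was tested.

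Some clock genes were higher at day 20. Of 18 circadian clock genes 8 rose (median 0.66) and 1 fell, Arntl, which encodes the BMAL1 partner in the core activator (3.72 and 3.41, then 1.56 and 1.37, -0.89 ± 0.20). Dbp, a clock-driven PAR bZIP factor, went from 7.87 and 8.46 to 26.6 and 38.7 (1.85 ± 0.25, adjusted p = 0.00309), its relatives Tef from 44.1 and 46.2 to 107 and 102 (1.19 ± 0.18) and Hlf from 15 and 14.6 to 37.7 and 34.7 (1.23 ± 0.15), and the repressor Nr1d2 from 12.8 and 16.6 to 45.6 and 43.1 (1.54 ± 0.17). Clock, the other partner, did not pass (45.5 and 55.5, then 78.5 and 66.2, adjusted p = 0.164). Dbp and Nr1d2 passed under all 17 other settings, and without each library in turn 4, 4, 5 and 6 of the 18 rose. The labels give no hour of collection, so time of day and age cannot be told apart. Of 15 promoters of the list 5 hold the E-box CACGTG (33.3%), the letters bound by the core activator. The share was 10.1% of all promoters, 9.59% of those of genes called higher and 25% of those of 20 proximal tubule carriers. Ciart, a clock repressor chosen for printing after its value and 3 matches were seen, was low, at 0.886 and 0.525 and then 2.6 and 2.4 (1.05 ± 0.27, adjusted p = 0.0394), and lost its call in each fit without a control library. Its promoter is given for chr3:95882252-95882478 of build GRCm38.p6 on the minus strand, 5′ to 3′, with the E-boxes in capitals.
Ciart: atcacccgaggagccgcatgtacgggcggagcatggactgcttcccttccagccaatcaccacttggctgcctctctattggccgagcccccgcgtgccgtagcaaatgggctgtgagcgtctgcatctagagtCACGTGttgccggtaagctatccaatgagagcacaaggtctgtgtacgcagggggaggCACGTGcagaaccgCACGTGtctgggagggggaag

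Some interferon-stimulated genes were higher at day 20. Of 17 tested members 7 rose and 0 fell, and all 17 had a positive log2 fold change (median 0.74). Ifit3, which binds viral RNA in a complex of its family, went from 3.57 and 3.02 to 14.4 and 11.3 (1.68 ± 0.19, adjusted p = 0.00138), and Irf7, the factor that amplifies interferon production, from 5.04 and 2.97 to 14 and 15.3 (1.67 ± 0.24). Ifi44 (3.53 and 3.56, then 12.2 and 8.18, 1.28 ± 0.21), the GTPase Iigp1 (2.03 and 2.23, then 8.94 and 6.88, 1.5 ± 0.29) and the antiviral enzyme Rsad2 (29.9 and 30.9, then 57 and 46.4, 0.74 ± 0.17) rose as well. Ifit3 and Irf7 passed under all 17 other settings, and without each library in turn 2, 3, 2 and 3 of the 17 rose. The interferon-stimulated response element, searched as GAAA, any 2 bases and GAAA on both strands, is in 7 of 13 promoters of the list (53.8%), against 2.94% of all promoters and 3.51% of those of genes called higher. It is printed in capitals, in either orientation, for Ifit3 (chr19:34583279-34583528, plus strand) and Rsad2 (chr12:26456453-26456702, minus strand), build GRCm38.p6, 5′ to 3′ up to the start. These are members that hold it, whereas the promoters of Irf7 and Ifi44 hold 0 matches.
Ifit3: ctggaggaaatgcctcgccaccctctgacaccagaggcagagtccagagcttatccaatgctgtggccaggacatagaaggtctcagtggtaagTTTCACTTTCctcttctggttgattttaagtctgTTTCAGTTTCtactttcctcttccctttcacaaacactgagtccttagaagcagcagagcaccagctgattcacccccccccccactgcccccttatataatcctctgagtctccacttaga
Rsad2: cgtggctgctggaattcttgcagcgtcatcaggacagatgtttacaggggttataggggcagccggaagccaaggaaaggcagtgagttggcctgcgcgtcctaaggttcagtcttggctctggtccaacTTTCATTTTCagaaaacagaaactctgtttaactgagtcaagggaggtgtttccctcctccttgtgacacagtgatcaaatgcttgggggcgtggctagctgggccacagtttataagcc

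Antigen presentation genes rose in part, and leukocyte markers did not pass. Of 10 genes of MHC class II and antigen presentation 3 rose: H2-Aa (3.94 and 3.67, then 12.7 and 10.5, 1.39 ± 0.19, adjusted p = 0.00341), its invariant chain Cd74 (9.81 and 7.61, then 25.4 and 23, 1.38 ± 0.25) and the class I chain H2-K1 (45.1 and 52.3, then 81.5 and 97.9, 0.87 ± 0.20). The other 7 did not pass, and 8 of the 10 had a positive log2 fold change. The class II chain H2-Ab1 overlapped between ages (6.14 and 5.58, then 6.0 and 7.19). H2-DMa (1.97 and 1.95, then 1.04 and 1.08) and H2-DMb1 (8.17 and 8.09, then 5.17 and 4.83) had lower values at day 20. Of 15 macrophage genes 0 passed in limma or edgeR and 1 with DESeq2, with 2 at an unadjusted p below 0.05 in limma, and their summed value was 59.7 and 51.8 at day 10 and 60.2 and 57.9 at day 20. Csf1r, the macrophage growth factor receptor, was at 18.2 and 14.3 and then 19.2 and 21 (0.3 ± 0.17, adjusted p = 0.3). Among 15 complement genes C3 rose (2.99 and 2.54, then 7.51 and 12.2, 1.5 ± 0.33) and the protease Cfi fell (5.22 and 5.42, then 1.27 and 0.816, -1.64 ± 0.23). Of 18 tubule injury genes 3 fell and 1 rose: the intermediate filaments Vim (131 and 116, then 41.6 and 51.5, -1.39 ± 0.19) and Krt18 (17.4 and 18, then 9.2 and 7.02, -1.05 ± 0.23) and the lipocalin Lcn2 (7.05 and 6.3, then 1.72 and 2.01, -1.42 ± 0.31) fell, and the copper protein Cp rose (19.2 and 22.8, then 63.6 and 65.2, 1.57 ± 0.33). H2-Aa, Cfi and Vim passed under all 17 other settings, and Krt18, Lcn2, Cp, Cd74 and H2-K1 lost their calls in each fit without a control library. Of the immediate early genes, which respond to handling and stress within minutes, 1 of 17 rose, Ier3 (0.92 ± 0.20), near the 5.04% of all genes.

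Markers of other tissues and of sex were as follows. Fat genes were higher in the second day 20 library (summed value 889 and 981, then 985 and 1546), with 0 of 8 called in limma, edgeR or DESeq2 and 3 at an unadjusted p below 0.05 in limma. Liver genes summed to 106 and 101 and then 115 and 91.3, and 1 of 7 passed, the thyroid hormone carrier Ttr (50.9 and 48.3, then 12 and 17.3, -1.72 ± 0.25). Hemoglobin Hbb-bs was at 376 and 447 and then 412 and 616 (0.3 ± 0.30, adjusted p = 0.575). Of 12 tested genes known to differ between male and female kidneys 5 rose and 0 fell: Slc7a12, a carrier higher in females, went from 10.1 and 12.6 to 50.6 and 68.9 (2.28 ± 0.24), the medium-chain acyl-CoA synthetases Acsm3 and Acsm2 (1.69 ± 0.27 and 1.4 ± 0.30) and Prlr rose with the steroid enzyme Hsd3b4 (1.11 ± 0.30), and the androgen-regulated Kap was at 783 and 965 and then 2969 and 2557 and did not pass (1.66 ± 0.47, adjusted p = 0.0517). Sex and age can be told apart only in part for these genes. Both day 20 libraries have the female pattern, and of the day 10 libraries the second has high Xist with some Y-linked signal. With the sex covariate Slc7a12, Acsm3, Acsm2 and Prlr kept their calls, Hsd3b4 lost its call and Kap passed. A covariate for the Y-linked sum ended 49 of the 167 calls on named genes.

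Genes at the centre of the study did not pass between the ages. Pkd1 was at 31.1 and 22.7 at day 10 and 27.6 and 27.2 at day 20 (0.04 ± 0.19, adjusted p = 0.922), and Pkd2 at 57.4 and 54.5 and then 69 and 61.2 (0.21 ± 0.21, adjusted p = 0.572). Of the Cre drivers' own genes, Cdh16 was at 263 and 211 and then 273 and 253 (0.15 ± 0.23, adjusted p = 0.719) and Pkhd1 at 116 and 111 and then 149 and 157 (0.43 ± 0.21, adjusted p = 0.235). Hoxb3os, the noncoding RNA of the HoxB cluster that the study is about, was low and overlapped between ages (2.07 and 2.56, then 2.6 and 1.99, -0.01 ± 0.29, adjusted p = 0.986). Its neighbour Hoxb3 fell (17.5 and 13.9, then 7.12 and 8.21, -0.94 ± 0.25, adjusted p = 0.0384), the 1 called of 10 HoxB genes, and lost that call in each fit without a control library. Of 29 mTOR pathway genes 1 rose, Deptor, an inhibitor that binds mTOR (23.4 and 23.4, then 40.9 and 43.7, 0.83 ± 0.15, adjusted p = 0.0091), a call that remained without day 10 control 2 and was lost without each of the other 3. Among 14 tested polycystic kidney disease genes Umod was the 1 called. Over all genes 5.04% were called higher and 7.26% lower, and 1 call in each of these lists is near those shares.

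The ages were also compared in the knockouts, which are other libraries with the same floxed genes at the same ages. Both comparisons come from 1 fit with a shared estimate of the spread. A call in controls therefore depends in part on how far knockout replicates lie apart, and the shares below are not independent of the calls. The knockout groups also differ in the gene lost and the Cre driver. Xist was at 25.3 and 27.7 in day 10 knockouts and at 1.74 and 448.5 in day 20 knockouts. Their Y-linked sum was 149.5 and 183.1, then 169.5 and 0.0462, and small structural RNA made up 29.2% and 13.4%, then 23.7% and 6.42%. The part of these was not tested beyond the alternatives given at the end. Between day 10 Pkd1 and day 20 Pkd2 knockouts 3.44% of genes were called higher and 2.71% lower, 504 and 397 genes. Those counts were 183 and 119 without day 10 knockout 1, between 222 and 306 without either day 10 knockout 2 or any 1 control library, and at least 341 without either day 20 knockout. Of the 738 genes called higher in controls, 560 (75.9%) had both day 20 knockouts above both day 10 knockouts, against 21.8% of all genes tested, and of the 1063 called lower 883 (83.1%) had both below, against 23.9%. Called in the same direction were 243 genes, 32.9% of those higher in controls and 48.2% of those higher in knockouts, and 278 genes, 26.2% of those lower in controls and 70.0% of those lower in knockouts. Igf2 was at 22.5 and 19 in day 10 knockouts and 2.8 and 2.2 in day 20 knockouts (-2.64 ± 0.18), and H19 at 46.5 and 64.4 and then 3.76 and 1.99 (-3.89 ± 0.27). Egf was low in all 4 knockouts relative to the controls of the same age, and went from 2.69 and 3.94 to 179.8 and 107 (5.03 ± 0.27); the difference between the steps did not pass (0.14 ± 0.38, adjusted p = 0.993). Of the 20 mitosis genes 10 were lower in the knockouts (median -0.95), with Mki67 at 95.4 and 86.4 and then 32.8 and 62.3 (-0.99 ± 0.27, adjusted p = 0.0697). Of 17 interferon genes 11 were higher (median 1.12).

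Some groups had few calls in the knockouts. The clock list had a median of -0.04 there with 0 of 18 called higher and 1 lower in limma (Cry2, -0.83 ± 0.17; 4 at an unadjusted p below 0.05), and Dbp was at 4.41 and 4.0 and then 7.57 and 4.51 (0.4 ± 0.25, adjusted p = 0.422). The glucocorticoid list had a median of 0.15 with 2 of 13 called (Hsd11b1, 2.74 ± 0.35, and Hsd11b2, 1.17 ± 0.18), and Klf15 was at 4.15 and 6.71 and then 7.26 and 5.25 (0.19 ± 0.29). The respiratory chain list had a median of 0.09 with 0 of 32 called in limma and 0 at an unadjusted p below 0.05, and Ndufs1 was at 85.4 and 84.3 and then 124 and 94.4 (0.35 ± 0.19). Podocyte genes had a median of -0.20 with 1 of 15 lower, Wt1 (12.5 and 17.4, then 6.0 and 5.9, -1.18 ± 0.19). The difference between the steps, tested in the same model, did not pass for Dbp (-1.45 ± 0.35, adjusted p = 0.226), Hlf (-0.95 ± 0.21, adjusted p = 0.179), Klf15 (-1.12 ± 0.41, adjusted p = 0.472) or Scnn1a, which rose in controls and fell in knockouts, from 141 and 153 to 81 and 91.9 (-1.7 ± 0.26, adjusted p = 0.0958). Kcnt1 rose in controls and was at 0.382 and 0.91 and then 1.99 and 0.856 in knockouts, a difference of -3.47 ± 0.54 (adjusted p = 0.0958). Over all 14637 genes 1 difference passed, that of the serpin Serpina10, named because it is the only one: 6.7 and 8.24 and then 3.69 and 2.96 in controls (-0.97 ± 0.19) against 6.49 and 6.9 and then 34.1 and 27.3 in knockouts (2.03 ± 0.19), a difference of 3.0 ± 0.27 (adjusted p = 0.0252). It no longer passed when any 1 control or day 10 knockout library was left out (adjusted p = 0.0516 to 0.302), and the number of differences that passed went to 50 without day 20 knockout 1.

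**Figure D4:**
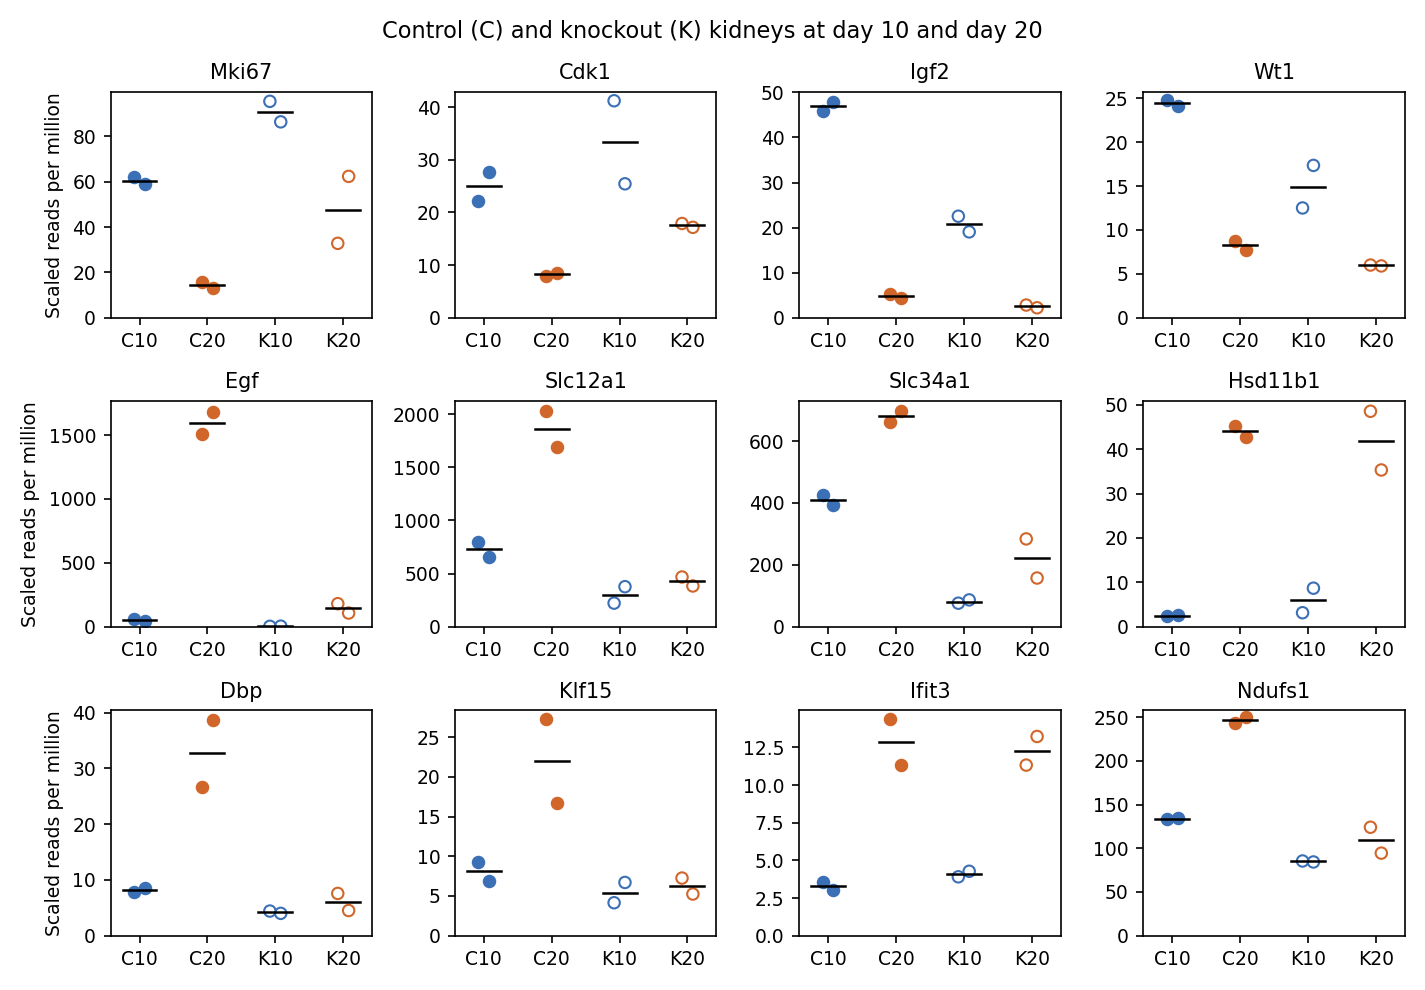
Scaled RPM of 12 genes in control (C, filled) and knockout (K, open) kidneys at day 10 (blue) and day 20 (orange), with 1 point for each library and a bar at the mean of 2. Mki67, Cdk1, Igf2 and Wt1 fall from C10 to C20 and lie lower in K20 than in K10; Egf and Hsd11b1 step up in both, and Dbp, Klf15 and Ndufs1 step up in controls with overlapping or close knockout groups.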

How the data were processed

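RNA from whole mouse kidney was extracted with Trizol and sequenced from TruSeq libraries, per the labels' protocols. Per the submitters' processing notes, the authors' tools were RSEM 1.2.22, STAR 2.4.2a, edgeR, FastQC 0.11.2 and Cufflinks 2.2.1, on build mm10. The 8 kidney columns hold a signal per gene that the authors deposited: estimated reads relative to library depth (RPM) divided by a scaling factor of each library, so values are whole multiples of what 1 read is worth. Reads were recovered from these steps (92.3% to 95.0% of values whole within 0.02, with day 10 control 1 the least certain), giving 49634037 to 94429120 reads in the 4 control libraries.

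Genes reaching a value of 1 in 2 or more libraries (14637 of 28183) were analysed by limma 3.58.1 (R 4.3.3, trend) on log2(value + 1), in 1 fit of 4 groups with 2 libraries each, which share 1 estimate of the spread (4 residual degrees of freedom). The contrast was day 20 minus day 10 controls, two-sided, adjusted by Benjamini-Hochberg, and a gene was called below 0.05. With 2 libraries against 2, an exact permutation test cannot go below p = 0.333, so none is given. No GC or length correction was made, and levels are not compared between genes because the files give only genomic spans. Alternatives were edgeR 4.0.16 and DESeq2 1.42.0 on recovered reads, other pseudocounts, filters and scalings, a replicate block, a sex covariate and fits without each control library. The script was tested on simulated data.

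The comparison, 58 gene lists and the settings were chosen with earlier results of these data known. Named genes are the 12 largest rises and falls among called genes with a mean of at least 5 and no overlap (predicted genes, pseudogenes, immunoglobulins and small RNAs passed over), up to 4 called members of each list by adjusted p and its 2 most abundant, the study's own genes and sex-linked genes. Cdk1, Ccnb2, Top2a, Ciart, Serpina10, H2-Ab1, H2-DMa, H2-DMb1 and members listed to complete a small count were named after their values were seen. Promoters are from RefSeq (GRCm38.p6), trimmed at the first annotated start. The 2 libraries of a group differed by more than sampling noise (chi-square per degree of freedom 488 and 26.4). The 5 cell line samples were not used here.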

Additional observations from a re-analysis of the deposited data

Results flagged for a closer look

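The change of the serpin Serpina10 between the ages differed between knockouts and controls by a test of the difference itself in the same limma fit. Its log2 fold change of day 20 over day 10 was -0.97 in controls and 2.03 in knockouts, a difference of 3.005 ± 0.27 (SE, 2 libraries a group; adjusted p = 0.0252), and it was the 1 gene of 14637 to pass. The difference stayed between 2.85 and 3.32 under the alternatives run, which were added after seeing the data. It did not pass with no filter on low values (adjusted p = 0.0748), with a replicate block (0.0556) or without any 1 control or day 10 knockout library (0.0516 to 0.302), and it passed without either day 20 knockout library (0.0138 and 0.0217).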

How the results depend on the processing

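Of 167 named genes that were called, 70 passed under all 17 other settings, 6 more under the 16 in which they were tested, and none changed direction under any of them. The 1801 calls (738 higher, 1063 lower) came to 942 (226 higher) when mitochondrially encoded genes were left out and the rest rescaled, and to 1077 (513 lower) with the sex covariate. Fitting the 4 control libraries alone gave 3079 (1474 higher, 1605 lower), on 2 residual degrees of freedom. Requiring a change of at least 2-fold left 970 (385 higher, 585 lower). Without each control library in turn, 412 to 818 genes were called, 156 to 257 of them higher and 256 to 561 lower; the lone library left in a group was then assumed to vary like the other groups. Without the 2 Pkd2 knockout libraries, an alternative chosen after seeing the data, 2567 passed, 1173 of them higher. The causes were not tested. DESeq2 called 2285 genes, edgeR 1767, and the other settings between 1335 and 2143. A replicate block gave 1511 calls. The deviations of same-numbered controls correlated at -0.21. With 2 libraries a group, crossing the numbers only turns the sign of that value, so it cannot decide whether replicate numbers pair the samples. Crossed numbers, also added after seeing the data, gave 1692. Leaving out mitochondrially encoded genes turned the medians of 9 gene lists with small changes from positive to negative, among them endocytosis receptors (-0.04), nephron transcription factors (-0.05) and claudins (-0.17). Genes near a scaled RPM of 1 are held toward 0 by the pseudocount. Of 92 named genes that were not called, 28 changed sign under at least 1 setting, 24 of which passed under none and 4, all Y-linked, under at least 1. Those whose fold change is given above are Ass1, Cdh16, Hoxb3os, Pax8 and Pkd1. Left-out mitochondrially encoded genes gave Ass1 -0.146, Cdh16 -0.061 and Pkd1 -0.167, small structural RNAs left out as well gave Ass1 -0.075 and Pkd1 -0.096, and quantile scaling gave Ass1 -0.124, Cdh16 -0.099 and Hoxb3os 0.085. Hoxb3os was at 0.013 with DESeq2 and 0.0055 with edgeR. The sex covariate put Hoxb3os at 0.49, Cdh16 at -0.00302 and Pkd1 at -0.013. Without each control library in turn, Ass1 ranged from -0.071 to 0.21, Cdh16 from -0.00353 to 0.31, Hoxb3os from -0.148 to 0.12, Pax8 from -0.0497 to 0.53 and Pkd1 from -0.18 to 0.26. For the age step of the knockouts, whose alternatives were added after seeing the data, 504 higher and 397 lower calls became 233 and 179 with no filter, 323 and 129 without mitochondrially encoded genes, 263 lower at a value of 5 and 226 lower with the sex covariate; without 1 library they ranged from 183 to 624 higher and 119 to 404 lower. The 1 difference from the controls became 5 with a pseudocount of 0.1, 8 with quantile scaling, 11 without mitochondrially encoded genes, 18 without small structural RNAs as well, 6 with the sex covariate, 0 with no filter or a replicate block, and 0 to 50 without 1 library.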
